A study of Mus musculus with 8 samples.

Results

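The expression of 10 genes of the tumor necrosis factor (TNF) receptor superfamily was examined in regulatory T (Treg) cells, the CD4 T cells that express FOXP3 and restrain other lymphocytes. They were taken by name, with no threshold on their values, from the 53465 gene identifiers in the deposited tables. The set has 9 receptors (Tnfrsf1b, Tnfrsf4, Tnfrsf8, Tnfrsf9, Tnfrsf14, Tnfrsf18, Tnfrsf25, Cd27 and Fas) and 1 ligand (Cd40lg), and every member was present in all 8 libraries. The study asked what the chromatin remodeler BRG1 (gene Smarca4) does in Treg cells of healthy and of inflamed mice. RNA was sequenced from sorted Treg cells of the spleen and lymph nodes of C57BL/6 mice aged 3 to 4 weeks, with 1 library per condition and no replicates.

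All mice carried R26CAG-FlpoER, a recombinase that works only after tamoxifen (TAM). Those labelled WT were BrgF/+ Foxp3YFP-Cre/+ and therefore still had a floxed Brg1 allele. Mosaic females carried BrgF/ΔR, in which ΔR is a trapped, GFP-marked Brg1 allele that FlpoER can repair. Cre sits on the X chromosome in the Foxp3 locus, so that in these females the Treg cells without YFP kept BRG1 (mosaic Brg1-sufficient, labelled Foxp3+/+) and those with YFP lost it (mosaic Brg1-deleted, labelled Foxp3YFP-Cre). The rKO1 mice carried BrgF/deltaR Foxp3YFP-Cre/YFP-Cre, lost BRG1 in their Treg cells and were inflamed. They were sampled untreated, or on Day 7 after TAM as GFP+ Brg1-deleted cells and GFP− Brg1-reexpressed cells, the latter labelled BrgF/+. In a separate experiment, activated Treg cells (aTreg, CD44hi CD62Llo) of rKO1 mice were sampled on the same day. The stated sorting gate requires YFP, which the mosaic Brg1-sufficient cells lack, and the number of mice behind a library is not given in the sources used here.

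Receptors of this superfamily bind trimeric ligands on neighboring cells and recruit TRAF adaptors, which activate the transcription factor NF-κB. A subset with a death domain, among them Fas and Tnfrsf25, can also bind FADD or TRADD. On Treg cells, OX40 (Tnfrsf4), GITR (Tnfrsf18), 4-1BB (Tnfrsf9) and TNFR2 (Tnfrsf1b) are costimulatory receptors known to be induced on activation, and TNFR2 supports Treg proliferation.

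Between 16343421 and 24112016 reads per library fell on genes. Levels are given as FPKM, reads scaled by exon length and library size, rescaled by the trimmed mean of M values (TMM) within each experiment, so that levels can be compared between genes and between libraries of 1 experiment but not between the total Treg and aTreg experiments. Smarca4 was between 5.56 and 7.27 in the 3 Brg1-deleted total Treg libraries and between 8.95 and 13.6 in the 3 others, and its count includes exons that lie before the trap. In aTreg cells it was 10.99 in the library labelled Brg1-deleted and 9.18 in the library labelled Brg1-reexpressed, against the labels, and the former also has a column headed WT and a genotype of F/F in its description. Directions in aTreg cells are therefore given by label only. All 6 Treg markers (Foxp3, Il2ra, Ctla4, Ikzf2, Cd4 and Cd3e) reached 5 CPM (reads at a common library size, without regard to length) in every library, while Foxp3 itself ranged from 18.3 in WT to 134 in mosaic Brg1-sufficient cells among total Treg libraries and was at 20.5 and 13.6 in the aTreg libraries labelled Brg1-deleted and Brg1-reexpressed. Over all libraries the summed levels were 1.06 to 1.52 for 4 dendritic cell, 3.20 to 34.6 for 4 plasma cell, 6.05 to 19.9 for 5 CD8 T or NK cell, 28.1 to 509 for 6 myeloid and 134 to 10644 for 4 erythroid markers. Y-linked reads were present in all rKO1 and aTreg libraries and at 0 in the WT and mosaic libraries, and Xist was at 0.0291 in the untreated rKO1 library, whose label gives the female form of the genotype, and between 0.684 and 9.14 in the others.

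Of the 10 members, 7 lie on chromosome 4, which holds 6.05% of the 21951 protein-coding genes of the annotation (GENCODE release M21, GRCm38). Tnfrsf1b (chr4:145213463-145246870, minus strand) and Tnfrsf8 (chr4:145267137-145315164, minus strand) are 20.3 kb apart. Tnfrsf4 (chr4:156013843-156016612, plus strand) and Tnfrsf18 (chr4:156026164-156028895, plus strand) are 9.55 kb apart with no protein-coding gene between them. Between these pairs lie Tnfrsf9 (chr4:150914562-150946102, plus strand), Tnfrsf25 (chr4:152115934-152120119, plus strand) and Tnfrsf14 (chr4:154921933-154928563, minus strand). The others were Cd27 (chr6:125232622-125237010, minus strand), Fas (chr19:34290666-34327772, plus strand) and Cd40lg (chrX:57212143-57224042, plus strand). The exons of Tnfrsf18 overlap those of the antisense gene Gm16008 over 27.2% of their bases, and those of Cd27 overlap the microRNA gene Mir8113 over 5.54%. Whether counting used the strand is not given in the sources used here, so that the values of Tnfrsf18 are uncertain by the reads of its antisense partner.

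The 5 genes that were highest in GFP− Brg1-reexpressed cells are shown by the 250 bases before a RefSeq transcript start (GRCm38.p6), written 5′ to 3′ on the strand of the gene, because all 5 share their highest pair of libraries, GFP− and untreated rKO1 cells. Capitals mark matches, on either strand, to GGGNNNNNCC (the outer bases of an NF-κB site), TGANTCA (AP-1) or TTCNNNGAA (STAT), and adjoining matches run together.
Tnfrsf1b, chr4:145246871-145247120, minus strand: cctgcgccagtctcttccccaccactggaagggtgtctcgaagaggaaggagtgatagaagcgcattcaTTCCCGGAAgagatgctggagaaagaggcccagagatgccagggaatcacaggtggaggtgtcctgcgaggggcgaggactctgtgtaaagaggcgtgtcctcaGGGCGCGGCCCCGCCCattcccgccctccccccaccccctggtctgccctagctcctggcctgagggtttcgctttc
Tnfrsf9, chr4:150927749-150927998, plus strand: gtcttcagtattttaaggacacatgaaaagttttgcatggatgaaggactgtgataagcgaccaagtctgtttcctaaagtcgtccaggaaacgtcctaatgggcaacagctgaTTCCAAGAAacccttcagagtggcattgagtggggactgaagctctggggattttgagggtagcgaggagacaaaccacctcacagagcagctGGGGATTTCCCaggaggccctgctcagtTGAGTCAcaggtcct
Tnfrsf4, chr4:156013445-156013694, plus strand: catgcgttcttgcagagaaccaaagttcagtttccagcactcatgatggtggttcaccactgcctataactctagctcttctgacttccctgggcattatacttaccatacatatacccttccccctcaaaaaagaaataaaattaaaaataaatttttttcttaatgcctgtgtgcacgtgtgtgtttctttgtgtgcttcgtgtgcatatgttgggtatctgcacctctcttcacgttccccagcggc
Tnfrsf18, chr4:156026072-156026321, plus strand: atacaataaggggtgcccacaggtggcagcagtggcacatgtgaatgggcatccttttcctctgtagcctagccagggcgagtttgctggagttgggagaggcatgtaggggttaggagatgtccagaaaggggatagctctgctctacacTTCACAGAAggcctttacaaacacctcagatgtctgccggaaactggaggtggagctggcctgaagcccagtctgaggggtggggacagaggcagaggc
Tnfrsf8, chr4:145315165-145315414, minus strand: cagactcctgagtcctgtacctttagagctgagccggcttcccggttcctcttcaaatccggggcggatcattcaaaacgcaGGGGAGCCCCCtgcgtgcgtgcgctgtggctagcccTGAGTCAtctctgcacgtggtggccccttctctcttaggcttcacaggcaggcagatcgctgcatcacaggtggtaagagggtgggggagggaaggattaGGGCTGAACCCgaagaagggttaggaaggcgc
The window of Tnfrsf9 shown, at 1 of its 2 starts, held all 3 motifs and that at the other start none, that of Tnfrsf1b held GGGNNNNNCC and TTCNNNGAA, that of Tnfrsf8 held GGGNNNNNCC and TGANTCA, that of Tnfrsf18 held TTCNNNGAA, and that of Tnfrsf4 held none. RefSeq windows were found for 9 of the 10 members, 11 windows in all. GGGNNNNNCC was in 8 of the 11 windows and in 45.8% of all 32851 promoter windows of this length. TTCNNNGAA was in 5 of the 11 and in 7.02% of all, and TGANTCA in 3 of the 11 and in 6.75% of all. TGTGGT (RUNX) and CCGGAAG (ETS) were each in 1 of the 11, at Tnfrsf25 and at Tnfrsf1b, where the latter overlaps the STAT match, against 14.0% and 6.91% of all windows. A match is a description of the letters and not a binding site, and a window without one says nothing of the factor.

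Tnfrsf4 and Tnfrsf18 were the most abundant members in every library. Tnfrsf4, which encodes OX40, was at 703 in WT, 750 in mosaic Brg1-sufficient, 691 in mosaic Brg1-deleted, 1284 in untreated rKO1, 889 in GFP+ Brg1-deleted and 1399 in GFP− Brg1-reexpressed cells, on 15953 to 33600 reads. WT and mosaic Brg1-deleted cells did not differ beyond counting error, and all 3 libraries of inflamed mice were above the 3 of healthy mice. Tnfrsf18, which encodes GITR, was at 479, 470, 554, 682, 547 and 752 in the same order. Its lowest pair, WT and mosaic Brg1-sufficient, and its middle pair, mosaic Brg1-deleted and GFP+ Brg1-deleted, did not differ beyond counting error. Together these neighbors made up between 71.0% (mosaic Brg1-deleted) and 81.4% (GFP− Brg1-reexpressed) of the summed level of the 10 members in total Treg cells, and 69.3% and 76.0% in the aTreg libraries labelled Brg1-deleted and Brg1-reexpressed. The ratio of Tnfrsf4 to Tnfrsf18 within a library, which no scaling changes, went from 1.25 in mosaic Brg1-deleted to 1.88 in untreated rKO1 cells. The summed level of the 10 members was 1597 in WT, 1706 in mosaic Brg1-sufficient, 1754 in mosaic Brg1-deleted, 2504 in untreated rKO1, 1871 in GFP+ and 2643 in GFP− cells. In bulk RNA, fewer cells that express a gene and less RNA per cell cannot be told apart.

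**Figure D1:**
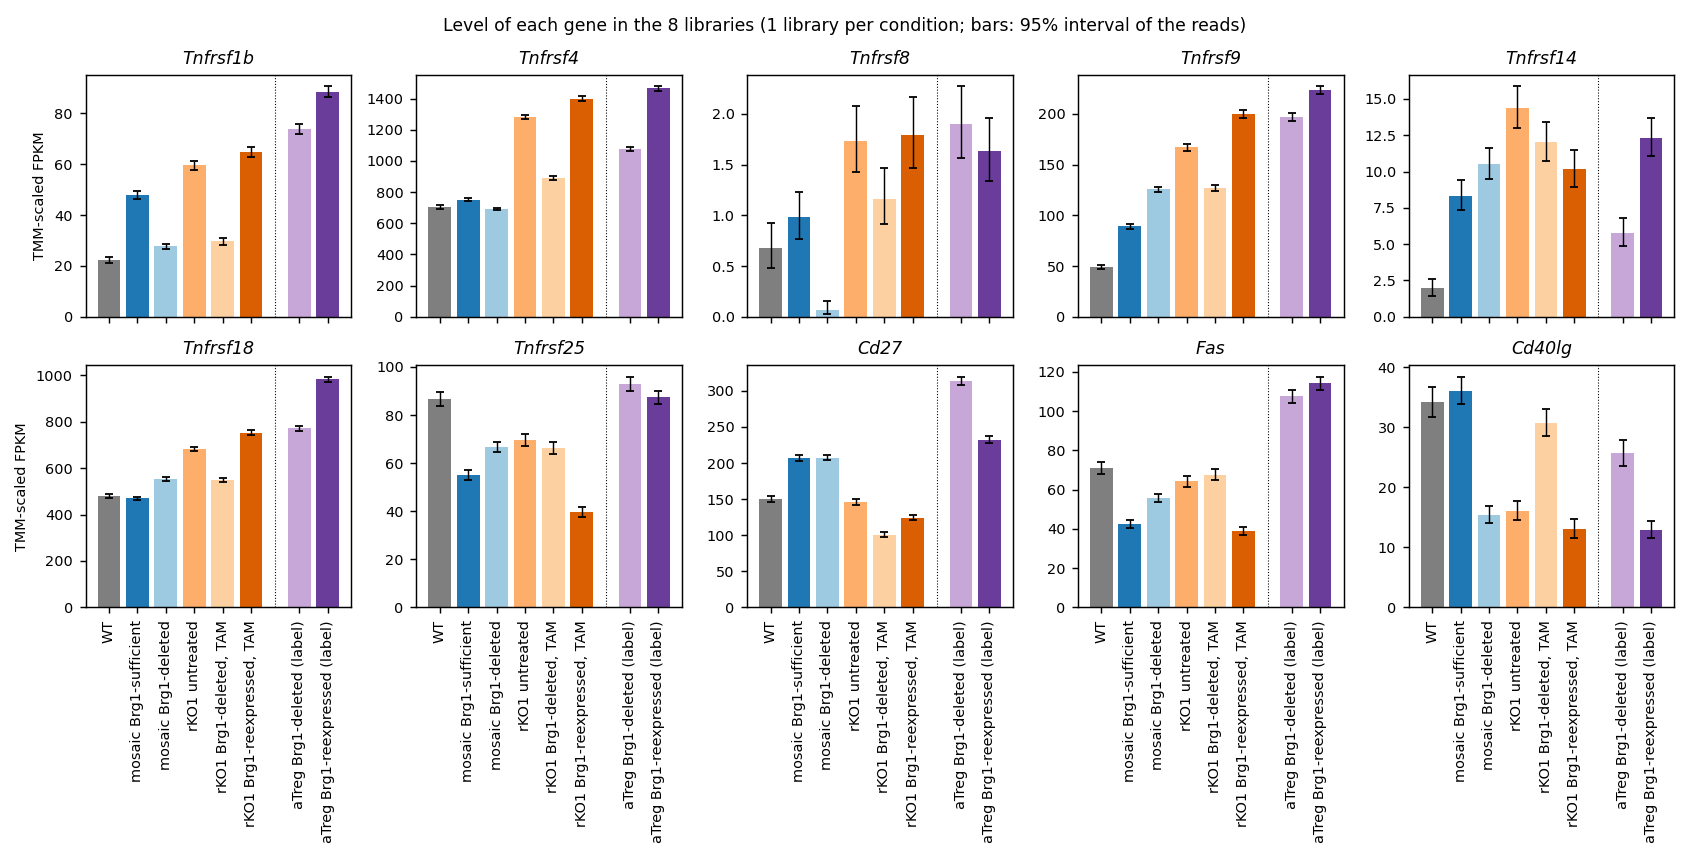
Level of each of the 10 genes (TMM-scaled FPKM, linear axes from 0) in the 6 total Treg libraries and, right of the dotted line, the 2 aTreg libraries, which were scaled separately. Each bar is 1 library and its line the exact 95% Poisson interval of its reads, which covers counting error only; GFP− Brg1-reexpressed cells of rKO1 mice (dark orange) were the highest total Treg library for Tnfrsf1b, Tnfrsf4, Tnfrsf9 and Tnfrsf18 and the lowest for Tnfrsf25, Fas and Cd40lg.

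Tnfrsf9, Tnfrsf1b and Tnfrsf8 ordered the libraries in a similar way at the top but not at the bottom. Tnfrsf9, which encodes 4-1BB, was at 48.7 in WT, 89.4 in mosaic Brg1-sufficient, 126 in mosaic Brg1-deleted, 167 in untreated rKO1, 127 in GFP+ Brg1-deleted and 200.2 in GFP− Brg1-reexpressed cells. The mosaic Brg1-deleted and GFP+ Brg1-deleted libraries did not differ beyond counting error, and the range from WT to GFP− cells was 4.11-fold. Tnfrsf1b, which encodes TNFR2, was at 22.2, 47.9, 27.7, 59.6, 29.6 and 64.6 in the same order. Its 6 libraries all differed beyond counting error, and they ran upwards from WT through mosaic Brg1-deleted, GFP+ and mosaic Brg1-sufficient to untreated rKO1 and GFP− cells. Tnfrsf8, which encodes CD30, was near the limit of detection, with 39, 72, 6, 115, 74 and 104 reads and levels of 0.678, 0.980, 0.0712, 1.73, 1.16 and 1.79. Mosaic Brg1-deleted cells stood apart at the bottom, untreated rKO1 and GFP− cells did not differ beyond counting error at the top, and GFP+, mosaic Brg1-sufficient and WT cells could not be ordered between neighbors.

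The other receptors followed different orders. Cd27, a receptor for CD70 that is high on resting lymphocytes, was at 150 in WT, 207 in mosaic Brg1-sufficient, 208 in mosaic Brg1-deleted, 146 in untreated rKO1, 101 in GFP+ Brg1-deleted and 124 in GFP− Brg1-reexpressed cells. Both mosaic libraries were the highest and did not differ beyond counting error, nor did WT and untreated rKO1 cells. The ratio of Tnfrsf4 to Cd27 within a library accordingly went from 3.33 in mosaic Brg1-deleted to 11.3 in GFP− cells, with 4.69 in WT, 3.63 in mosaic Brg1-sufficient, 8.79 in untreated rKO1 and 8.83 in GFP+ cells. Tnfrsf14, which encodes HVEM and binds BTLA and CD160 as well as TNF family ligands, was at 1.97, 8.32, 10.5, 14.4, 12.0 and 10.1 in the order above. WT, with 47 reads, was far below all others, and the middle libraries (GFP+, mosaic Brg1-deleted and GFP−) did not differ between neighbors beyond counting error.

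Members with a death domain were lowest in GFP− Brg1-reexpressed cells. Fas was at 70.9 in WT, 42.3 in mosaic Brg1-sufficient, 55.7 in mosaic Brg1-deleted, 64.1 in untreated rKO1, 67.4 in GFP+ Brg1-deleted and 38.9 in GFP− Brg1-reexpressed cells. Tnfrsf25, which encodes DR3, was at 86.5, 55.0, 66.8, 69.5, 66.1 and 39.8 in the same order. For both genes WT was the highest and GFP− cells the lowest, followed by mosaic Brg1-sufficient cells, although WT, GFP+ and untreated rKO1 cells did not differ between neighbors for Fas, nor the 3 Brg1-deleted libraries for Tnfrsf25. Among all pairs of members these were the most alike over the 6 total Treg libraries, with a root mean square distance of 0.14 between their centered log2 CPM, followed by Tnfrsf4 and Tnfrsf18 at 0.20. The 6 libraries share their scaling, and the distances are descriptions. Cd40lg, the ligand that gives T cell help to B cells and is usually low on Treg cells, was at 34.2 in WT, 36.1 in mosaic Brg1-sufficient, 15.4 in mosaic Brg1-deleted, 16.1 in untreated rKO1, 30.8 in GFP+ Brg1-deleted and 13.05 in GFP− Brg1-reexpressed cells, on 274 to 958 reads. The libraries fell into a high set (mosaic Brg1-sufficient, WT and GFP+) and a low set (untreated rKO1, mosaic Brg1-deleted and GFP−), and neighbors within the high set did not differ beyond counting error.

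**Figure D2:**
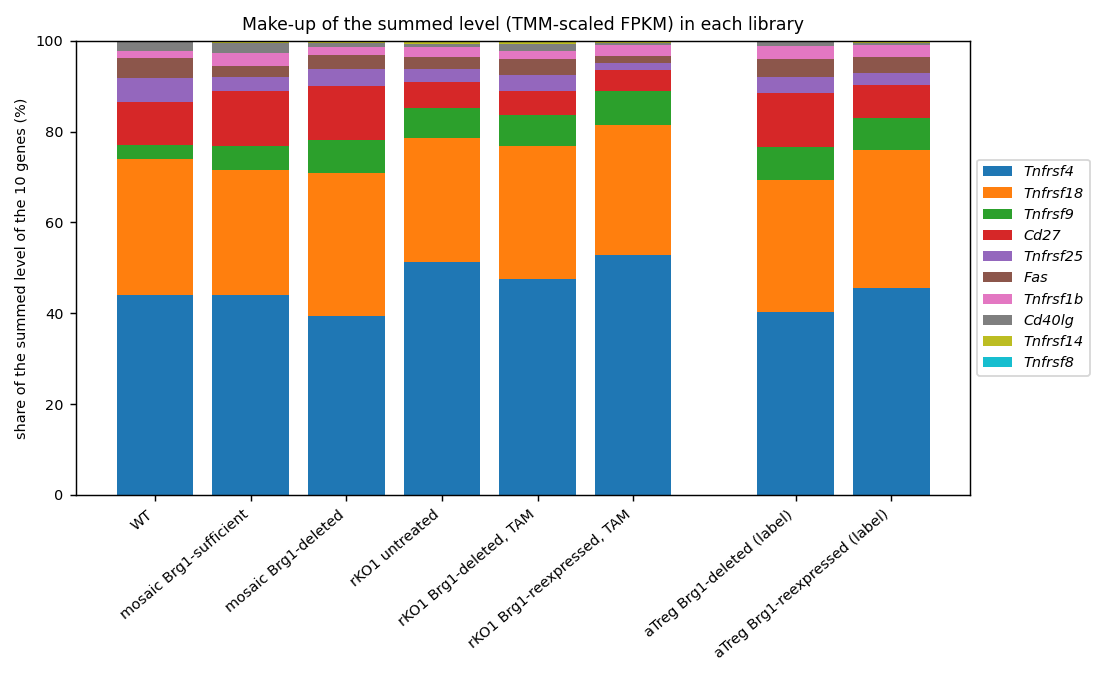
Share (%) of each gene in the summed level of the 10 genes (TMM-scaled FPKM) in each of the 8 libraries, stacked to 100%. Tnfrsf4 and Tnfrsf18 together take from 69.3% (aTreg library labelled Brg1-deleted) to 81.4% (GFP− Brg1-reexpressed cells), and Tnfrsf8 and Tnfrsf14 are too low to be seen as layers of their own.

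To compare libraries, a gene was tested when it reached 5 CPM in either of them and called when its level differed at least 2-fold. "Rose" and "fell" below mean this call, which has no p-value, and the intervals beside fold values are exact 95% binomial intervals of the reads, which cover counting error and not the spread between mice. Scaling by the library total in place of TMM shifted the median log2 fold change of all tested genes by -0.35 in the rKO1 comparison after TAM, by 0.22 in that of untreated rKO1 with mosaic Brg1-deleted cells and by -0.13 in the mosaic comparison. Values are given relative to TMM.

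The role of BRG1 in healthy mice was addressed with the mosaic females. Their cells with and without BRG1 also differed in the Foxp3 allele and in YFP. Foxp3 itself rose 2.19-fold in mosaic Brg1-sufficient cells (134 against 61.3), and the part of these differences was not tested. Cd40lg rose 2.34-fold (2.09 to 2.62) in mosaic Brg1-sufficient over mosaic Brg1-deleted cells, 1 of 9 members tested, where 6.1% of 10061 genes were called in either direction. Tnfrsf1b was 1.73-fold higher (1.65 to 1.82) in the Brg1-sufficient cells. Tnfrsf9 was 1.40-fold lower (1.36 to 1.45), Fas 1.32-fold lower (1.24 to 1.40), Tnfrsf14 1.26-fold lower, Tnfrsf25 1.21-fold lower and Tnfrsf18 1.18-fold lower, all under the threshold. Tnfrsf4 differed 1.08-fold, and its sign turned with the library total (0.12 against -0.01 on the log2 scale). The level of Cd27 did not differ beyond counting error (0.995-fold, 0.969 to 1.02). Tnfrsf8 had 72 reads against 6, a ratio of 13.8 (6.02 to 38.7), and was not tested because it stayed below 5 CPM in both. The median log2 fold change over the 10 members was -0.12, against 0.03 over all genes tested.

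In inflamed mice, GFP− Brg1-reexpressed cells were compared with GFP+ Brg1-deleted cells of rKO1 mice after TAM. Tnfrsf1b rose 2.18-fold (2.07 to 2.30) and Cd40lg fell 2.36-fold (2.05 to 2.72), 2 of 10 members tested, where 12.8% of 10315 genes were called. Tnfrsf9 was 1.58-fold higher (1.53 to 1.63) in GFP− cells and Tnfrsf4 1.57-fold (1.55 to 1.60), both under the threshold. Tnfrsf8 was 1.54-fold higher (1.13 to 2.10) and Tnfrsf18 1.37-fold (1.35 to 1.40), also under the threshold. Tnfrsf8 passed the 5 CPM filter only through GFP− cells, at 6.19 CPM against 4.03 in GFP+ cells. Both death domain receptors were lower, Fas 1.73-fold (1.61 to 1.86) and Tnfrsf25 1.66-fold (1.56 to 1.77). Cd27 was 1.23-fold higher (1.18 to 1.29), and Tnfrsf14 did not differ beyond counting error (0.845-fold, 0.712 to 1.002). The median over the 10 members was 0.38 on the log2 scale, against 0.06 over all genes tested. With the library total, the call of Tnfrsf1b was lost (0.78 on the log2 scale), Fas (-1.14) and Tnfrsf25 (-1.08) passed the threshold, and Cd27 turned to -0.05. Myeloid markers, summed over 6 genes, were at 28.1 in GFP− and 64.9 in GFP+ cells, with 2 and 4 of them at 5 CPM, and their part in these differences was not tested. The ratio of Tnfrsf1b to Fas within a library, which no scaling changes, was 0.439 in GFP+ and 1.66 in GFP− cells. It was 0.497 and 1.13 in mosaic Brg1-deleted and Brg1-sufficient cells. WT cells, with BRG1, were at 0.314, and untreated rKO1 cells, without it, at 0.929.

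No library entered both the mosaic and the rKO1 comparison, and 4 of the 10 members had opposite signs in them, 3 beyond counting error in both. Cd40lg rose in the library with BRG1 in mosaic females, where the Foxp3 allele and YFP differed too, and fell in the library with BRG1 in rKO1 mice. In rKO1 mice it was at 13.05 in GFP− and 30.8 in GFP+ cells, but at 16.1 in untreated cells, also without BRG1. The size of the fall thus depends on GFP+ cells as the reference. Tnfrsf9 was at -0.49 and 0.66 and Tnfrsf18 at -0.24 and 0.46 on the log2 scale. Among all 9623 genes tested in both comparisons 35.3% had opposite signs, and of the 238 genes called in both, 33 (13.9%) were called in opposite directions. Tnfrsf1b was higher with BRG1 in both comparisons, and Fas and Tnfrsf25 were lower in both. For Tnfrsf1b, untreated rKO1 cells, without BRG1, were at 59.6, against 64.6 in GFP− and 29.6 in GFP+ cells. GFP− cells were thus only 1.09-fold above untreated cells, and the size of this rise also depends on GFP+ cells as the reference. For Fas and Tnfrsf25, untreated cells (64.1 and 69.5) were close to GFP+ cells (67.4 and 66.1). WT cells, which also have BRG1, were the lowest total Treg library for Tnfrsf1b (22.2) and the highest for Fas (70.9) and Tnfrsf25 (86.5). On the log2 scale, WT against mosaic Brg1-sufficient cells differed by -1.11, 0.75 and 0.65 for these genes. The mosaic differences (0.79, -0.40 and -0.28) were smaller in size, and those in rKO1 mice (1.13, -0.79 and -0.73) slightly larger. With 1 library per condition, the difference between the settings was not tested.

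**Figure D3:**
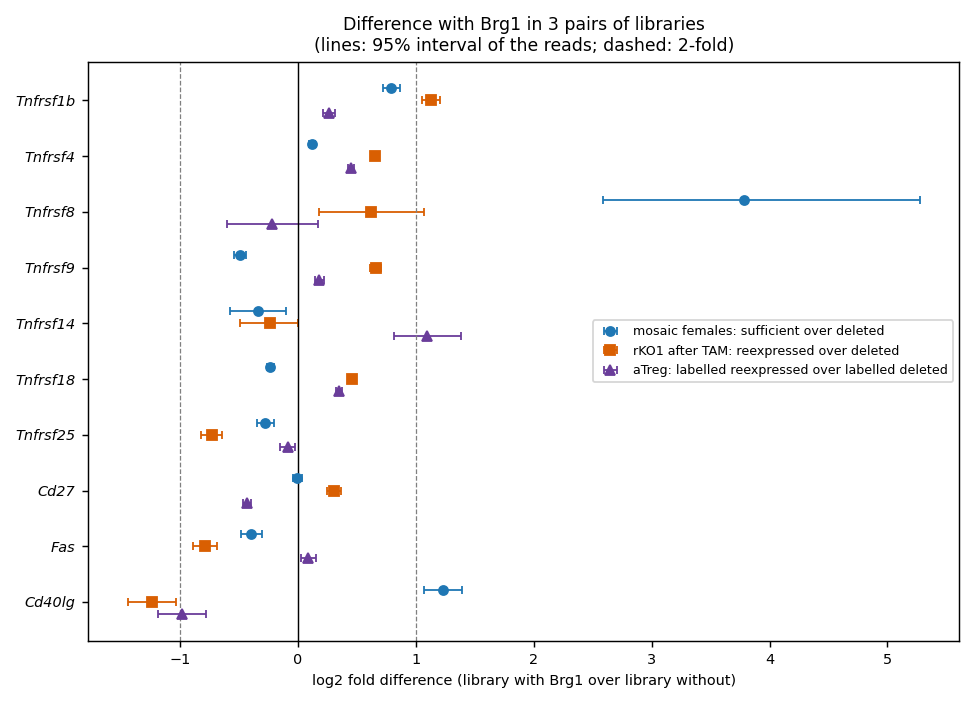
Log2 fold difference of each gene between the library with BRG1 and the library without, in mosaic females (circles), rKO1 mice after TAM (squares) and, by label, aTreg cells (triangles). Horizontal lines are exact 95% binomial intervals of the reads, counting error only, dashed lines mark 2-fold, and Cd40lg lies at 1.23 in mosaic females but at -1.24 in rKO1 mice.

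The host was compared between Brg1-deleted cells of untreated rKO1 mice, which were inflamed, and of mosaic females, which were not. Tnfrsf1b rose 2.15-fold (2.05 to 2.26) in untreated rKO1 cells, and Tnfrsf8, with 115 reads against 6, differed 24.3-fold (10.8 to 67.7), 2 of 10 members tested, where 15.1% of 10408 genes were called. Tnfrsf8 passed the 5 CPM filter only through the untreated rKO1 library, at 6.00 CPM against 0.246 in mosaic Brg1-deleted cells. With so low a level in 1 library, passing the filter in the other already meant a call. Tnfrsf4 was 1.86-fold higher (1.83 to 1.89), below the threshold here and past it with the library total (1.11 on the log2 scale). Tnfrsf14, Tnfrsf9 and Tnfrsf18 were 1.37-fold, 1.33-fold and 1.23-fold higher, and Cd27 was 1.42-fold lower (1.38 to 1.47). Fas was 1.15-fold higher, whereas Tnfrsf25 and Cd40lg did not differ beyond counting error. Sex differed between these hosts, since mosaic mice are females and the untreated rKO1 library held Y-linked reads, and its part was not tested. The median over the 10 members was 0.36 on the log2 scale, against -0.05 over all genes tested. Between cells with BRG1, GFP− rKO1 against mosaic Brg1-sufficient, Tnfrsf9 rose 2.24-fold (2.16 to 2.32) and Cd40lg fell 2.77-fold (2.42 to 3.17), 2 of 10 members tested beside 21.8% of 10323 genes. Tnfrsf4 was 1.87-fold higher, Tnfrsf8 1.83-fold, Tnfrsf18 1.60-fold and Tnfrsf1b 1.35-fold, and Cd27 was 1.66-fold lower. Here Tnfrsf8 passed the filter only through GFP− cells, at 6.19 CPM against 3.39 in mosaic Brg1-sufficient cells. The median over the members was again 0.36, against -0.05 over all genes tested. Sex-linked genes differed here too, with 4 Y-linked genes called higher in GFP− cells and Xist called lower, at 2.53 against 7.62. Foxp3 fell 4.90-fold (4.67 to 5.15), at 27.3 in GFP− against 134 in mosaic Brg1-sufficient cells. GFP− cells also came from mice given TAM, and the Foxp3 allele and YFP differed between these libraries. The part of all these, also for the X-linked Cd40lg, was not tested.

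The libraries that the study treats as comparable also differed. In GFP+ Brg1-deleted cells after TAM against untreated rKO1 cells, both without BRG1, Tnfrsf1b was 2.01-fold lower (1.91 to 2.12) and passed the threshold, 1 of 10 members tested beside 4.43% of 10298 genes. That call was lost with the median of ratios (-0.98 on the log2 scale), with TMM over these libraries alone (-0.99) and on the deposited FPKM. Cd40lg was 1.92-fold higher (1.69 to 2.18) after TAM. Of the 10 members 8 were lower, with a median of -0.36 on the log2 scale against 0.00 over all genes tested. Sex-linked genes differed in this pair, with Xist at 2.84 in GFP+ and 0.0291 in untreated rKO1 cells and Kdm5d and Uty called lower in GFP+ cells. Their part, also for the X-linked Cd40lg, was not tested. In WT against mosaic Brg1-sufficient cells, both with BRG1, Tnfrsf14 fell 4.23-fold (3.09 to 5.91) and Tnfrsf1b fell 2.15-fold (2.03 to 2.29). These were 2 of 9 members tested, beside 9.32% of 10118 genes. Tnfrsf14 passed the 5 CPM filter only through the mosaic Brg1-sufficient library, where it was high (12.0 CPM against 2.83 in WT). Tnfrsf9 was 1.83-fold lower in WT, and Fas and Tnfrsf25 were 1.68-fold and 1.57-fold higher. The median over the 10 members was -0.28 on the log2 scale, against -0.06 over all genes tested. Myeloid marker transcripts moved with this pair, with a summed level over 6 genes of 301 in WT, led by Lyz2 at 286 with 4 of the 6 at 5 CPM, and of 89.4 with 1 of the 6 in mosaic Brg1-sufficient cells. Erythroid markers were at 508 and 153, the 6 Treg markers at 273 and 499.6, and Foxp3 at 18.3 and 134, and the part of these markers was not tested.

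In aTreg cells, Tnfrsf14 rose 2.13-fold (1.76 to 2.61) in the library labelled Brg1-reexpressed over the library labelled Brg1-deleted, 1 of 10 members tested, where 6.44% of 10030 genes were called. The reads of Tnfrsf14 were 349 and 147, and its call was lost on the deposited FPKM with a pseudocount of 1 (0.94 on the log2 scale). Cd40lg, at 12.97 and 25.7, was 1.98-fold lower (1.72 to 2.28), just under the threshold, and passed it with the library total (-1.03). Higher by label were Tnfrsf4 at 1466 and 1074, Tnfrsf18 at 982 and 772, Tnfrsf9 at 224 and 197, and Tnfrsf1b at 88.6 and 73.8. Cd27 was 1.35-fold lower (1.32 to 1.39), at 233 and 314. Fas (114 and 107) and Tnfrsf25 (87.4 and 92.9) differed 1.06-fold, and Tnfrsf8 (1.63 and 1.90) did not differ beyond counting error. The median over the 10 members was 0.13 on the log2 scale, against -0.06 over all genes tested. Erythroid transcripts moved with this pair, with a summed level over 4 genes of 10644 in the library labelled Brg1-reexpressed and of 757 in the other, nearly all of it Hba-a1, and myeloid transcripts were at 509 and 338. Sex-linked genes moved too, with Xist at 2.36 and 0.684 and 4 Y-linked genes (Ddx3y, Eif2s3y, Kdm5d and Uty) called lower in the library labelled Brg1-reexpressed. The part of these in the differences was not tested.

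The ligands of the superfamily were read from a list of 17 genes, of which 9 were tested between GFP− and GFP+ cells of rKO1 mice. None rose, and 4 fell, beside the 12.8% of all genes called in either direction, with a median of -0.38 on the log2 scale over the 9 and of 0.06 over all genes tested. Tnfsf8, which encodes CD30 ligand, fell 7.18-fold from 27.5 to 3.83. Lta, which encodes lymphotoxin α, fell 4.24-fold from 135 to 31.8. Tnfsf11, which encodes RANKL, fell 3.54-fold from 11.4 to 3.22, and Fasl, the ligand of Fas, fell 2.33-fold from 9.08 to 3.90. These ligands did not share 1 pattern over the other libraries. Fasl also fell in mosaic Brg1-sufficient over mosaic Brg1-deleted cells (3.69 and 9.20), where Ltb, lymphotoxin β, rose from 552 to 1538. These were 2 of 8 ligands tested, beside 6.1% of all genes. In aTreg cells 0 of 9 ligands were called, beside 6.44% of all genes. Untreated rKO1 over mosaic Brg1-deleted cells had 2 of 9 ligands higher, Tnfsf9 and Tnfsf14, beside 15.1% of all genes called. GFP− over mosaic Brg1-sufficient cells had Tnfsf9 higher and Lta, Tnfsf8 and Tnfsf11 lower, of 9 tested, beside 21.8% of all genes called. The ligands of OX40 and GITR were scarce, with at most 0.383 for Tnfsf4 and 0.221 for Tnfsf18 in any library, whereas Tnfsf9, the ligand of 4-1BB, was between 4.81 and 17.6, and Tnf, a ligand of TNFR2, between 20.3 and 42.0.

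**Figure D4:**
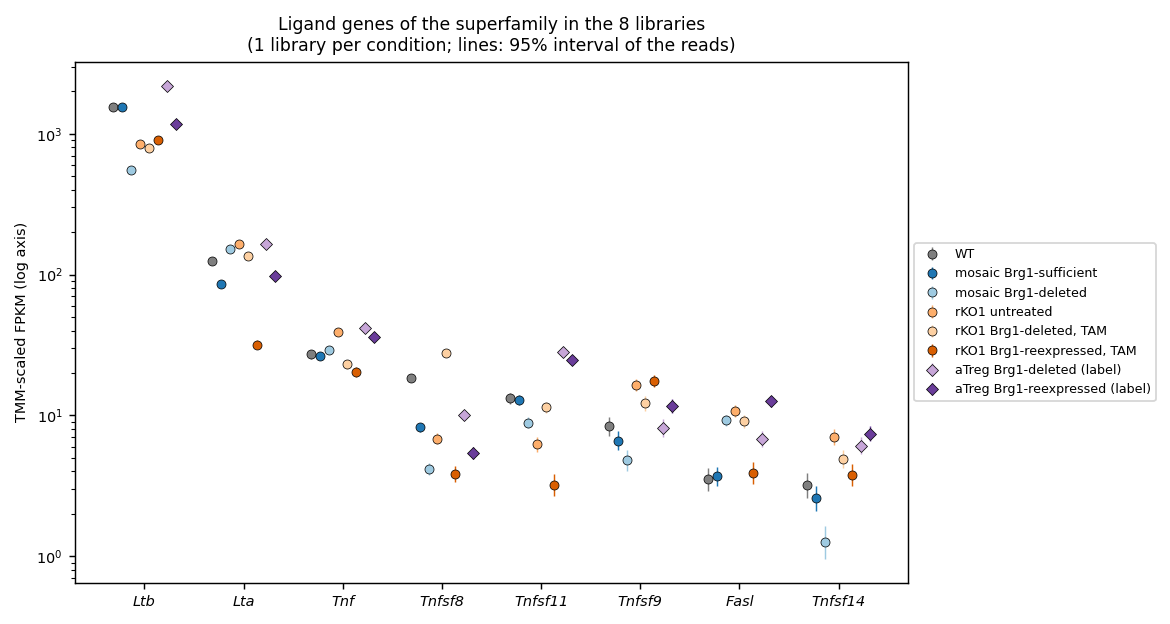
Level (TMM-scaled FPKM, log axis) of 8 ligand genes of the superfamily in the 8 libraries, circles for total Treg and diamonds for aTreg libraries, which were scaled separately. Lines are exact 95% Poisson intervals of the reads, counting error only. The GFP− Brg1-reexpressed library of rKO1 mice (dark orange) is the lowest total Treg library for Lta, Tnf, Tnfsf8 and Tnfsf11. Its interval overlaps that of GFP+ cells for Tnf and that of mosaic Brg1-deleted cells for Tnfsf8.

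Of the listed genes named so far, Tnfsf8 was high in the same WT and GFP+ libraries as Cd40lg. Tnfsf8 was at 18.4 in WT, 8.22 in mosaic Brg1-sufficient, 4.16 in mosaic Brg1-deleted, 6.84 in untreated rKO1, 27.5 in GFP+ Brg1-deleted and 3.83 in GFP− Brg1-reexpressed cells. Tnfaip3, which encodes the NF-κB inhibitor A20, was at 15.0, 3.60, 3.32, 6.45, 34.3 and 15.7 in the same order. WT and GFP+ cells were high for Cd40lg, Tnfsf8 and Tnfaip3, while mosaic Brg1-sufficient cells were high for Cd40lg alone and GFP− cells were as high as WT for Tnfaip3 but lowest for Cd40lg and Tnfsf8. Tnfaip3 rose in WT over mosaic Brg1-sufficient cells (4.17-fold) and in GFP+ over untreated rKO1 cells (5.32-fold), and Nfkbia, another NF-κB inhibitor, rose in the former (2.10-fold). Their part in the levels of Cd40lg was not tested. Among 17 adaptor and signaling genes, 16 were tested between GFP− and GFP+ cells, and 2 fell, Map3k14 (the kinase NIK, 2.05-fold) and Tnfaip3 (2.19-fold), with none higher and a median of -0.20 on the log2 scale, a share close to the 12.8% of all genes called in this comparison. None of 16 was called in the mosaic comparison or in untreated rKO1 over mosaic Brg1-deleted cells and none of 15 in aTreg cells. In GFP− over mosaic Brg1-sufficient cells 1 rose, again Tnfaip3. The shares of all genes called were 6.1%, 15.1%, 6.44% and 21.8% in the same order.

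Of 19 other receptors of the superfamily, 7 were tested between GFP− and GFP+ cells, and Tnfrsf13c, the BAFF receptor, rose 2.56-fold from 2.13 to 5.46 while none fell, with a median of -0.18 on the log2 scale over the 7. Of the B cell markers, Cd79b was at 14.9 in GFP− and 7.15 in GFP+ cells and Cd79a at 3.35 and 4.00, and their part in Tnfrsf13c was not tested. No other receptor was called in the mosaic comparison (6 tested) or in aTreg cells (7 tested), where 6.1% and 6.44% of all genes were called. Tnfrsf1a, the TNF receptor with a death domain, fell in both comparisons with the host. It went from 12.4 to 5.92 in untreated rKO1 over mosaic Brg1-deleted cells, 1 of 6 tested beside 15.1% of all genes. It went from 11.4 to 3.77 in GFP− over mosaic Brg1-sufficient cells, where Tnfrsf13c rose from 1.24 to 5.46. Tnfrsf13c again passed the filter only through GFP− cells, against 2.50 CPM in mosaic Brg1-sufficient cells, where passing it already meant a call. In that comparison 7 were tested, and 21.8% of all genes were called. Of 13 binding partners of the members, 8 were tested between GFP− and GFP+ cells and 4 fell, Cd160 beside the ligands Tnfsf8, Fasl and Lta. Their median was -0.97 on the log2 scale over the 8, against 0.06 over all genes tested, of which 12.8% were called. Cd160, a ligand of HVEM, was at 7.38 in WT, 9.46 in mosaic Brg1-sufficient, 19.98 in mosaic Brg1-deleted, 25.1 in untreated rKO1, 21.3 in GFP+ Brg1-deleted and 5.02 in GFP− Brg1-reexpressed cells. It was thus low in the 3 libraries with BRG1 and high in the 3 without. In aTreg cells it went the other way by label, at 66.2 in the library labelled Brg1-reexpressed and 26.6 in the other, and Btla, the other partner of HVEM, stayed between 12.3 and 21.0 in all 8 libraries.

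Genes with the most similar pattern were sought among 7512 non-members that reached 20 CPM in a total Treg library, by the root mean square distance of centered log2 CPM over the 6 libraries. Tnfrsf18 was closest to Tnfaip1 (0.05), Tnfrsf4 to Rbl2 (0.05) and Cd27 to Vps13c (0.06). Fas was closest to Gmip (0.08), Tnfrsf25 to Lancl1 (0.11) and Tnfrsf1b to N4bp1 (0.14). Tnfrsf9 was closest to Ikzf2 (0.19), the Treg transcription factor Helios, and Tnfrsf14 to Tlcd2 (0.19) and Afdn (0.19). Tnfrsf8, with few reads, was closest to Podnl1 (0.16), and Cd40lg had the most distant nearest gene, Irf2bp2 (0.26). The next gene after these was Ptp4a2 for Tnfrsf4, Rras2 for Tnfrsf9, Nf2 for Tnfrsf1b, Brip1os for Tnfrsf18, H2-K2 for Tnfrsf25, 9930111J21Rik2 for Cd27, Akap8 for Fas, Rhoc for Tnfrsf8 and Zfp771 for Cd40lg. The median distance to all 7512 genes ran from 0.40 for Tnfrsf18 to 1.12 for Tnfrsf8, and the names are a description of these 6 libraries.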

How the data were processed

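Treg cells were sorted from spleen and lymph nodes, and total RNA was copied with the SMART-Seq v4 kit and sequenced as paired ends. The submitters' processing notes name HISAT2 2.0, StringTie 1.3.3b, featureCounts 1.5.0-p3 and mm10, without their order. As deposited by the authors, each table gives an FPKM value per Ensembl gene for 1 library. The members and gene lists were chosen with earlier results of these data known. Reads were recovered as FPKM times the merged exon length (GENCODE M21, 53274 of 53465 identifiers matched) times the library total that made the values whole within 0.02. This held for 93.4% of 25995 genes with reads in the total Treg experiment, for 1246 more with a length of their own (Fas among them, at 1801 bases), and for 100% of 21219 in the aTreg experiment. The total implied by the deposited values was 0.815 to 1.08 times the reads in total Treg and 1.00 times in aTreg libraries, so that the former already carry a scaling.

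Depth was 16343421 to 24112016 reads, and 3 reads correspond to 0.123 to 0.180 CPM. TMM scaling was coded in Python 3.11.15 with NumPy 2.4.6, pandas 2.3.3 and SciPy 1.17.1, figures with matplotlib 3.10.9. A prior of 0.125 reads was added for log2 fold changes, while fold values and their intervals used the reads alone. The study names TMM, 5 CPM and 2-fold as criteria, and an adjusted p that needs a dispersion 1 library per condition cannot give. All members are named. Genes of the 5 lists (ligands, other receptors, adaptors, binding partners, and Brg1 with sex-linked genes) are named with values when called between GFP− and GFP+ cells of rKO1 mice, up to 4 per list, and others were named after their values were seen. Promoter sequences are from RefSeq (GRCm38.p6). Recovery of totals, reads and known fold changes was tested on simulated data. These were made with the annotated exon lengths, so that genes with a length of their own were not covered. Alternatives were the library total or the median of ratios in place of TMM, the deposited FPKM with a pseudocount of 1 or 0.1, no filter or 1 CPM, folds of 1.5 and 3 and, added after seeing the data, TMM over the compared libraries only. Results for 1 marker gene are not reported here.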

Additional observations from a re-analysis of the deposited data

Results flagged for a closer look

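For 5 results, expression was higher in the library with BRG1 in 1 setting and lower in another, beyond counting error in both under TMM. Opposite signs between the mosaic and rKO1 comparisons were also common over all genes, at 35.3% of the 9623 genes tested in both. No such share was taken for aTreg cells. None of these differences was tested, since each setting has 1 library per condition. Cd40lg differed the most, with a log2 fold change in rKO1 total Treg cells that was -2.47 relative to that in mosaic females. Its fall in rKO1 mice was taken against GFP+ cells, which were 1.92-fold above untreated rKO1 cells, also without BRG1. Tnfrsf9 (1.15) and Tnfrsf18 (0.70) were the opposite case, lower with BRG1 in mosaic females and higher with BRG1 in rKO1 mice. For Tnfrsf9, both log2 values (-0.49 and 0.66) were smaller in size than that of WT over mosaic Brg1-sufficient cells (-0.88). For Tnfrsf18 (-0.24 and 0.46), WT over mosaic Brg1-sufficient cells was at 0.03. Between total Treg and aTreg cells of rKO1 mice, the log2 fold change of Cd27 differed by 0.74, being 0.30 in total Treg cells and -0.43 in aTreg cells by label. With the library total in place of TMM, Cd27 was at -0.05 in total Treg cells, and the opposite direction was lost. That of Fas differed by -0.88, being -0.79 and 0.09. The aTreg difference of Fas was only 1.06-fold (1.02 to 1.11). The library total shifts the aTreg comparison by -0.04 on the log2 scale, and this difference is then no longer beyond counting error. The aTreg direction rests on labels that the Smarca4 level went against.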

How the results depend on the processing

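No paired analysis was possible because each condition has 1 library. The number of members called depended mostly on the fold asked for. At 3-fold it went from 1 to 0 in the mosaic comparison, from 2 to 0 between GFP− and GFP+ cells of rKO1 mice, from 2 to 1 in untreated rKO1 over mosaic Brg1-deleted cells, from 2 to 0 in GFP− over mosaic Brg1-sufficient cells, from 1 to 0 in GFP+ over untreated rKO1 cells, from 2 to 1 in WT over mosaic Brg1-sufficient cells and from 1 to 0 in aTreg cells. At 1.5-fold these counts were 2, 7, 3, 6, 2, 5 and 2. In the mosaic comparison, no filter or 1 CPM gave 2, because Tnfrsf8 was then tested. In GFP+ over untreated rKO1 cells, the median of ratios, the deposited FPKM with either pseudocount and TMM over the compared libraries each gave 0. In WT over mosaic Brg1-sufficient cells a pseudocount of 1 gave 1. In aTreg cells the library total and a pseudocount of 0.1 gave 2, and a pseudocount of 1 gave 0. Of 350 member values under alternatives, 7 changed sign, all from a log2 fold change of at most 0.30 in size, 7 lost the call and 5 gained it. For Tnfrsf8, with 6 reads in mosaic Brg1-deleted cells, depth limits the ratio to a wide interval. Intervals cover counting error only, the spread between mice is unknown, and PCR copies were not told apart from molecules.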
